A study of Mus musculus with 12 samples.

Results

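Tanycytes are elongated glial cells that line the floor and lower walls of the third ventricle and send a long process into the hypothalamus. They resemble the radial glia of development, contact both cerebrospinal fluid and the vessels of the median eminence, and are known for moving hormones such as leptin into the brain and for sensing nutrients. The genes described here are 8 genes used as tanycyte markers, *Vim*, *Nes*, *Gpr50*, *Rarres2*, *Cd59a*, *Col25a1*, *Scn7a* and *Frzb*. They were chosen by symbol, and all 8 have a row among the 16855 genes of the chow table and among the 16744 genes of the HFD table.

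Hypothalamus was taken from 12 male mice, 3 in each of 4 groups that combine genotype, +/+ (WT) or *Gpr75*-/-, with diet, chow or a high-fat diet (HFD). The HFD was given for 2 weeks from 6 weeks of age. The mice were 8 weeks old and the study made its *Gpr75*-/- allele by CRISPR/Cas9 in C57BL/6J mice, with WT littermates as controls. The allele ends translation early, so the transcript can still be made. The values used here are the authors' level of each gene in each group, 1 value per gene and group with no value of a single mouse. The authors also deposited the results of their own comparison, errors included, which were not used here. A difference between groups therefore has no replicate check or error between mice here, and no test was run. The intervals given below cover only the rounding of the deposited values.

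Levels are in CPM, the count of a gene scaled to a library total of 1000000. The mean normalized counts summed to 18280462 over the genes listed for chow and 19420111 over those listed for the HFD. These sums are of scaled counts and are not the read depth of a mouse. *Gpr75* itself was at 24.6 CPM in *Gpr75*-/- and 16.7 CPM in WT mice on chow, and at 18.4 and 19.9 CPM on the HFD. The hypothalamic hormone genes *Pmch* and *Oxt* were at 245 and 110 CPM in chow-fed WT mice, and the astrocyte gene *Slc1a3* at 834 CPM. *Rax*, a transcription factor that defines tanycytes, was not analysed here. Among other tanycyte genes, *Dio2*, the enzyme that activates thyroid hormone, was at 12.9 CPM and *Lhx2*, a transcription factor, at 13.5 CPM in chow-fed WT mice. In whole tissue, fewer cells of a type and less RNA per cell cannot be told apart, and most of the 8 genes are also made by other cells.

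The 8 genes spanned a wide range of levels. *Col25a1*, which encodes a membrane collagen also made by neurons, had a mean of 2531 normalized counts on chow and lay above 91.2% of genes. *Cd59a* and *Vim* lay near the middle, above 53.5% and 49.3% of genes. *Gpr50*, *Nes* and *Scn7a* had means of 203, 184 and 179 normalized counts, and *Frzb* and *Rarres2* the lowest, 102 and 92.0. The order on the HFD was the same by mean normalized count, from *Col25a1* at 2329 to *Rarres2* at 97.4. Every member passed the minimum of 30 normalized counts set for the comparison.

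**Figure D1:**
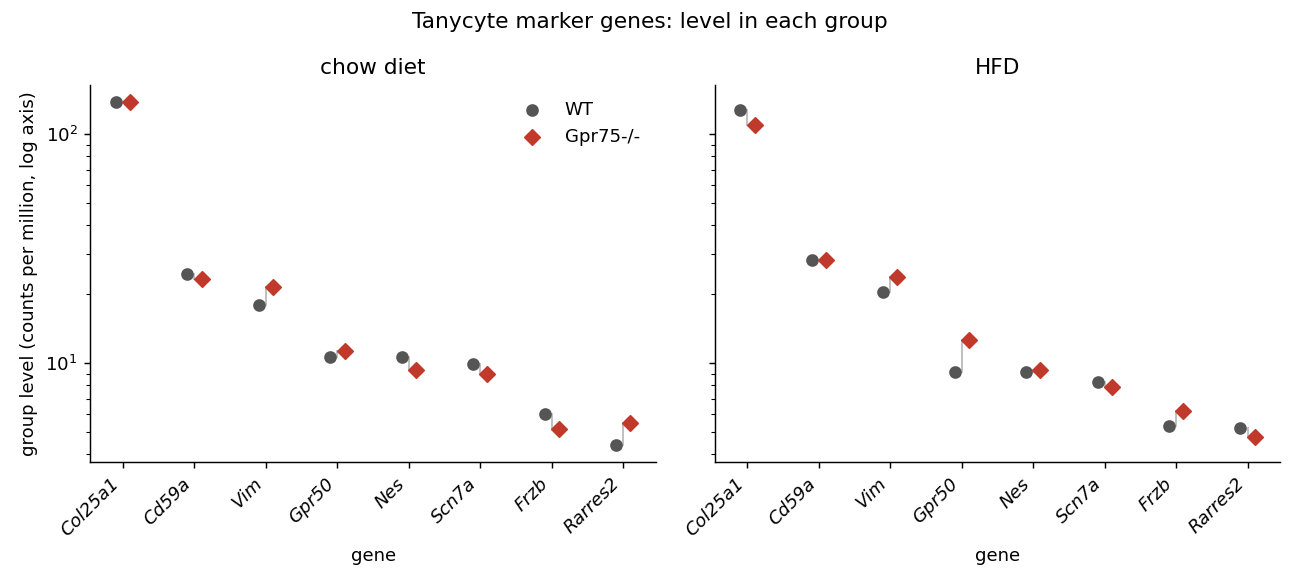
Level of each tanycyte marker gene in CPM (log axis) in WT (circles) and *Gpr75*-/- mice (diamonds), on chow (left) and on the HFD (right). Each symbol is the authors' value for a group of 3 mice, with no error between mice. *Col25a1* sits above 100 CPM in all groups and *Rarres2* and *Frzb* between 4.40 and 6.19 CPM.

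Levels of different genes were compared per kilobase of exon. On this scale *Cd59a* led in chow-fed WT mice with 13.6 CPM per kilobase, followed by *Col25a1* with 10.7. *Vim* and *Gpr50* followed at 3.79 and 3.46 CPM per kilobase. *Frzb*, *Rarres2* and *Nes* were close together at 1.85, 1.66 and 1.65, and *Scn7a* was the lowest at 1.36. In HFD-fed WT mice *Cd59a* was at 15.6, *Col25a1* at 9.89, *Vim* at 4.30 and *Gpr50* at 2.99 CPM per kilobase, with *Rarres2* at 1.97, *Frzb* at 1.64, *Nes* at 1.43 and *Scn7a* at 1.13. The first 4 places and the last were thus held by the same genes on both diets. *Nes* was next to last on both, and *Frzb* and *Rarres2* changed places. How far neighbors in this order differ beyond the spread between mice was not tested. Exon length counts every annotated exon of a gene, 12947 bases for *Col25a1* and 1811 for *Cd59a*, so a gene that uses few of its exons is understated.

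The study compared *Gpr75*-/- with WT mice on each diet to ask what part the receptor has in the control of feeding by the brain. On chow, relative to WT, 3 members were higher, 4 lower and 1 equal in *Gpr75*-/- mice, and the median log2 difference was -0.04, against 0.00 over the 15653 genes compared. Among all genes compared, 43.7% were higher and 41.2% lower. None of the 8 was past a fold of 1.25 in either direction, where 6.14% of all genes compared were (3.17% higher and 2.97% lower). On the HFD, 4 members were higher, 3 lower and 1 equal, with a median log2 difference of 0.01 against 0.00 over 15744 genes. Among all genes, 47.0% were higher and 35.2% lower. There 1 of the 8, *Gpr50*, was past the fold, where 4.33% of all genes were (2.33% higher and 2.00% lower).

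**Figure D2:**
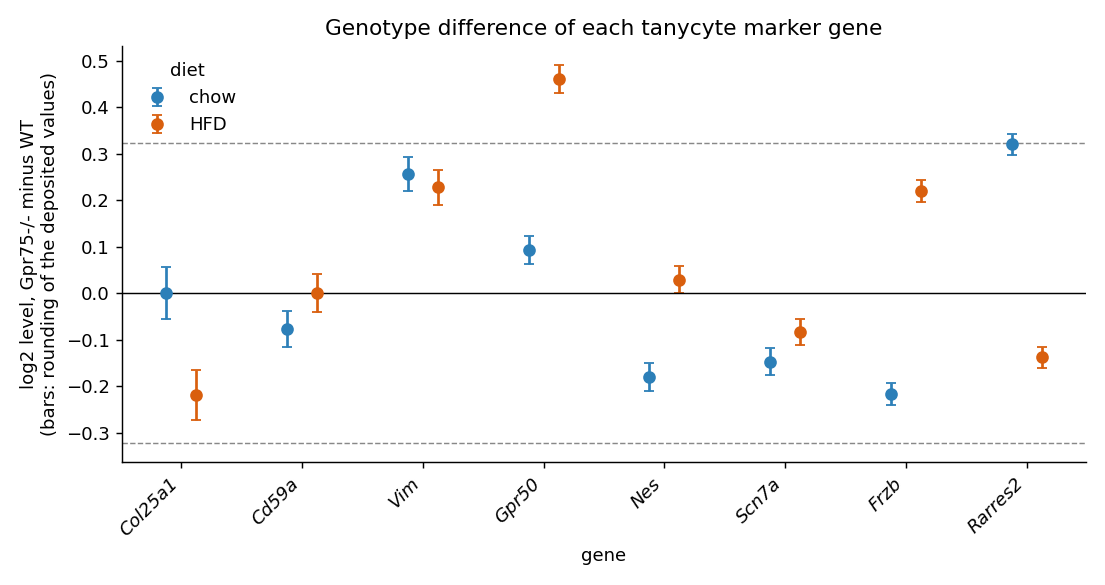
Log2 difference of the level in *Gpr75*-/- minus WT mice for each tanycyte marker gene, on chow (blue) and on the HFD (orange). Bars show the range left by rounding of the deposited values and no error between mice, and dashed lines mark a fold of 1.25. *Gpr50* on the HFD, at 0.46, is the point beyond the lines, and *Rarres2* on chow, at 0.32, touches the upper one.

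*Gpr50* (ENSMUSG00000056380, chromosome X, 70707273 to 70712863, as deposited, with GRCm39 named in the submitters' processing notes) encodes an orphan receptor related to the melatonin receptors. On the HFD its level was 12.6 CPM in *Gpr75*-/- and 9.18 CPM in WT mice, 1.38 times the WT level (rounding range 1.35 to 1.41). A higher difference was found for 0.730% of all genes compared on the HFD. On chow the levels were 11.3 and 10.6 CPM, 1.07 times the WT level (1.04 to 1.09), and 22.6% of genes had a higher difference. Set side by side over separately normalized tables, HFD-fed WT mice had the lowest and HFD-fed *Gpr75*-/- mice the highest of the 4 levels. The log2 difference was thus 0.46 on the HFD and 0.09 on chow, and whether it differed between the diets was not tested.

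*Gpr50* is also made by some hypothalamic neurons, and several neuropeptide genes were also higher on the HFD. Of 12 hypothalamic neuron genes, 11 were higher in *Gpr75*-/- mice and 1 was equal. The differences of *Avp* and *Crh* were within the rounding of the deposited values. The median log2 difference of the list was 0.27, and 5 of its genes were past the fold of 1.25. Over all genes compared on the HFD, 47.0% were higher and 2.33% were higher and past the fold. *Snap25*, a synaptic gene of all neurons and the most abundant of the list, was equal at 2108 CPM in each genotype. The level of *Npy*, an appetite-stimulating peptide gene, was 22.7 CPM in *Gpr75*-/- and 16.3 CPM in WT mice, and that of *Pomc*, which encodes the melanocortin precursor, 28.2 and 20.4 CPM. On chow the same list had 6 genes higher and 5 lower, with a median of 0.03, against 43.7% and 41.2% of all genes compared. The chow differences of *Pmch*, *Oxt* and *Snap25* were within rounding. Past the fold on chow was 1 gene of the list, *Agrp*, at 3.37 against 2.69 CPM. Of all genes compared on chow, 3.17% were higher and past the fold. The summed level of the list was 3143 against 2976 CPM on the HFD and 3152 against 3258 CPM on chow. Without *Snap25* it was 1034 against 868 CPM on the HFD and 918 against 889 CPM on chow. The part of these genes in the *Gpr50* difference was not tested.

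The intermediate filament genes *Vim* and *Nes*, whose proteins fill the long process of radial glia and tanycytes, differed from each other. *Vim* (ENSMUSG00000026728, chromosome 2, 13578738 to 13587637) was at 21.5 CPM in *Gpr75*-/- and 18.0 CPM in WT mice on chow, 1.20 times the WT level (1.16 to 1.23). On the HFD it was at 23.9 and 20.4 CPM, 1.17 times the WT level (1.14 to 1.20). The log2 differences of *Vim* were thus alike on the 2 diets, 0.26 and 0.23. A higher difference was found for 5.16% of genes on chow and 5.59% on the HFD. *Nes* (ENSMUSG00000004891, chromosome 3, 87878385 to 87887758) was at 9.37 CPM in *Gpr75*-/- and 10.6 CPM in WT mice on chow, 0.883 of the WT level. On the HFD its levels were 9.37 and 9.18 CPM, a gap within the rounding of the deposited values.

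*Vim* is also made by vascular cells and astrocytes. On chow the smooth muscle gene *Acta2* was at 10.2 CPM in *Gpr75*-/- and 11.1 CPM in WT mice, and on the HFD at 15.5 and 11.8 CPM. *Myh11*, the myosin of smooth muscle, was at 11.8 and 11.3 CPM on chow and at 16.7 and 12.9 CPM on the HFD. *Flt1*, an endothelial gene and the most abundant of the list, was at 74.0 and 79.4 CPM on chow and at 69.1 and 74.0 CPM on the HFD. Of 8 endothelial and vascular smooth muscle genes, 2 were higher and 6 lower on chow (median log2 difference -0.08). On the HFD 5 were higher and 3 lower (median 0.03). There 2 of the 8, *Acta2* and *Myh11*, were higher and past the fold, against 2.33% of all genes. All genes compared were higher in 43.7% and lower in 41.2% of cases on chow, and in 47.0% and 35.2% on the HFD. The summed level of the 8 was 177 against 185 CPM on chow and 182 against 178 CPM on the HFD. The 10 astrocyte genes had medians of 0.03 on chow and 0.00 on the HFD, and summed levels of 2947 against 2940 CPM and 3131 against 3079 CPM. Without *Slc1a3*, the most abundant of them, the sums were 2069.6 against 2106 CPM on chow and 2206 against 2154 CPM on the HFD. The part of these cells in the *Vim* values was not tested.

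Among the secreted factors, both members had opposite differences on the 2 diets. *Rarres2* (ENSMUSG00000009281, chromosome 6, 48546630 to 48549723) encodes chemerin, a chemoattractant and adipokine. On chow its level was 5.50 CPM in *Gpr75*-/- and 4.40 CPM in WT mice, 1.25 times the WT level (1.23 to 1.27), a ratio just short of the fold of 1.25 before rounding, and 3.24% of genes had a higher difference. On the HFD it was at 4.75 and 5.23 CPM, 0.909 of the WT level (0.894 to 0.923). *Frzb* (ENSMUSG00000027004, chromosome 2, 80242314 to 80277969) encodes a secreted inhibitor of Wnt signaling. Its level was 5.15 CPM in *Gpr75*-/- and 5.98 CPM in WT mice on chow, 0.861 of the WT level (0.846 to 0.875), and 6.19 and 5.32 CPM on the HFD, 1.16 times the WT level (1.14 to 1.18).

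*Rarres2* and *Frzb* have the lowest counts of the members. By group level, choroid plexus genes were higher in *Gpr75*-/- mice on chow beside *Rarres2*. All 6 of the list that could be compared were higher and past the fold, against 3.17% of all genes, with a median log2 difference of 1.16, and their summed level was 70.4 against 41.2 CPM. *Ttr*, the main product of choroid plexus, was at 12.9 CPM in *Gpr75*-/- and 5.59 CPM in WT mice. Its mean over the 6 mice was 159 CPM, so at least 1 mouse was far above both group levels. The mean of *Kl*, 19.5 CPM, was also above its group levels of 15.9 and 6.64 CPM. The values used do not give the genotype of such mice. On the HFD *Ttr* was at 1.35 CPM in *Gpr75*-/- and 3.60 CPM in WT mice, lower and past the fold, as were 2.00% of all genes. There 2 of 5 choroid plexus genes were higher and 3 lower, against 47.0% and 35.2% of all genes. The summed level was 37.0 against 38.0 CPM. The part of choroid plexus in the *Rarres2* values was not tested.

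*Col25a1* (ENSMUSG00000058897, chromosome 3, 129925150 to 130393526) was at 138 CPM in both genotypes on chow. On the HFD it was at 110.0 CPM in *Gpr75*-/- and 128 CPM in WT mice, 0.859 of the WT level (0.827 to 0.893), and 4.81% of genes had a lower difference. *Col25a1* thus had the lowest HFD difference of the 8. *Scn7a* (ENSMUSG00000034810, chromosome 2, 66503769 to 66615258) encodes the sodium channel Nax, a sensor of extracellular sodium. It was the member that was lower on both diets, at 9.00 CPM in *Gpr75*-/- and 9.97 CPM in WT mice on chow and at 7.85 and 8.32 CPM on the HFD. Its ratios to WT were 0.903 (0.885 to 0.922) and 0.944 (0.926 to 0.962).

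*Cd59a* (ENSMUSG00000032679, chromosome 2, 103926146 to 103945699) encodes an anchored surface protein that blocks the membrane attack complex of complement. Its level was 23.3 CPM in *Gpr75*-/- and 24.6 CPM in WT mice on chow, 0.948 of the WT level (0.923 to 0.974). On the HFD it was 28.2 CPM in both genotypes. More than 50% of genes had a larger absolute difference than *Cd59a* on each diet, 51.1% on chow and 82.3% on the HFD. Its absolute difference was the smallest of the 8 on the HFD and, after *Col25a1*, on chow.

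Over all 8 genes, 3 differed in the same direction on both diets (*Vim*, *Gpr50* and *Scn7a*), 3 in opposite directions (*Rarres2*, *Frzb* and *Nes*, the last within rounding on the HFD) and 2 were equal between genotypes on 1 diet (*Cd59a* and *Col25a1*). The diets have separate WT mice. The median absolute log2 difference over the members was 0.16 on chow and 0.18 on the HFD, against 0.08 and 0.07 over all genes compared. The median member lay above 37.2% of genes in level on chow and 36.2% on the HFD. Past the fold of 1.25 were 6.14% and 4.33% of all genes compared, but 2.26% and 1.43% of those with a mean of at least 100. The members were not compared with genes of like level. Their summed level was 223 CPM in *Gpr75*-/- and 222 CPM in WT mice on chow, and 203 and 214 CPM on the HFD, of which *Col25a1* made up the greater share. Without *Col25a1* it was 85.1 against 84.1 CPM on chow and 92.9 against 85.8 CPM on the HFD. Members thus lay on both sides of 0 on each diet.

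**Figure D3:**
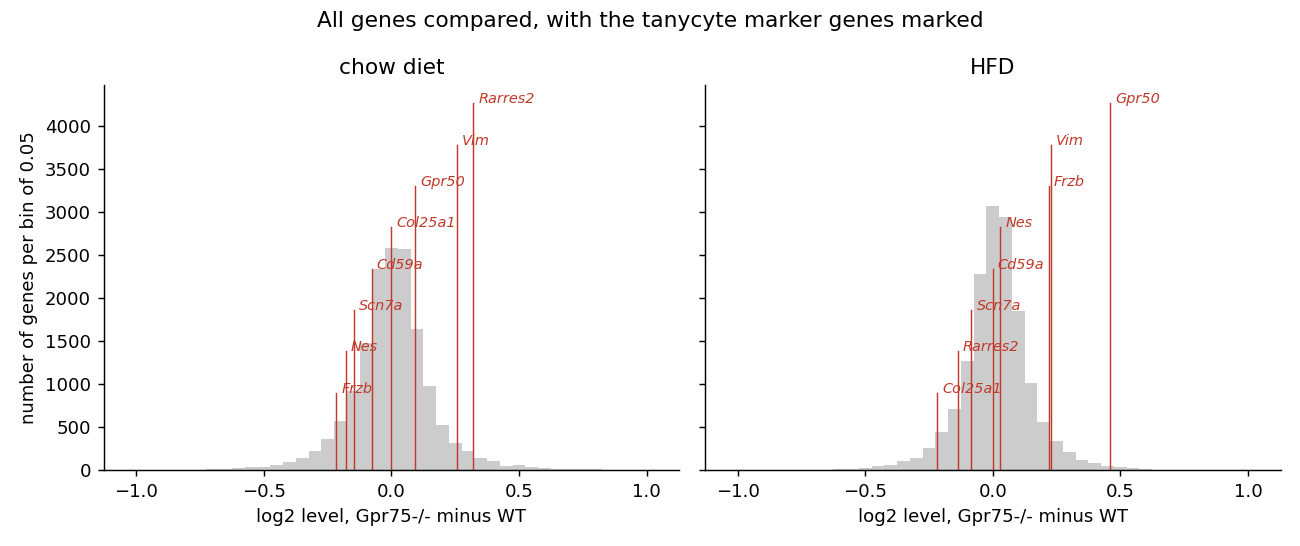
Number of genes by log2 difference of *Gpr75*-/- minus WT level, in bins of 0.05, for all genes compared on chow (left) and on the HFD (right), with differences beyond 1 placed in the end bins. Red lines mark the tanycyte marker genes and their heights carry no value. *Gpr50* on the HFD lies in the right tail, where 0.730% of genes had a higher difference.

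Other genes used for tanycytes also lay on both sides of 0. Of 21 such genes compared on chow, 9 were higher, 10 lower and 2 equal, with a median log2 difference of 0.00, and on the HFD 5 were higher, 13 lower and 3 equal, with a median of -0.06. On each diet 2 of the 21 were past the fold of 1.25, all lower in *Gpr75*-/- mice. Over all genes compared, 41.2% were lower on chow and 35.2% on the HFD, and 2.97% and 2.00% were lower and past the fold. *Crym*, which encodes a thyroid hormone-binding crystallin also made by neurons, was past it on both diets, at 3.46 against 7.02 CPM on chow and 2.46 against 3.37 CPM on the HFD. Its mean over the 6 chow-fed mice was 7.64 CPM, above both group levels, so at least 1 mouse was above both. *Hes5*, a target of Notch, was at 6.19 against 9.97 CPM on chow and at 6.30 against 5.88 CPM on the HFD. *Adm*, which encodes a vasoactive peptide, was at 2.12 against 3.41 CPM on the HFD and at 0.915 of the WT level on chow. *Dio2* was at 13.2 against 15.2 CPM on the HFD and 13.5 against 12.9 CPM on chow. The most abundant of the list, *Ptn*, a growth factor shared with other glia, was at 305 against 319 CPM on both diets. This gap is within the rounding of the deposited values.

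Ependymal cells, the ciliated neighbors of tanycytes on the ventricle wall, had 6 of 10 genes higher on chow (median log2 difference 0.08) and 7 of 10 lower on the HFD (median -0.14). Their summed level was 101 against 96.0 CPM on chow and 103 against 98.4 CPM on the HFD. Without *Hdc*, the most abundant of the list, it was 73.1 against 70.8 CPM on chow and 67.9 against 71.8 CPM on the HFD. *Hdc*, which makes histamine and is also a neuron gene, was past the fold on the HFD, at 35.4 against 26.6 CPM, and *Cfap126* on chow, at 3.75 against 4.75 CPM. Of all genes compared, 43.7% were higher on chow, 35.2% were lower on the HFD, and 6.14% and 4.33% were past the fold. *Foxj1*, the regulator of motile cilia, was at 15.5 against 13.5 CPM on chow and 15.5 against 16.7 CPM on the HFD. The oligodendrocyte genes were lower in *Gpr75*-/- mice in 8 of 8 cases on each diet, against 41.2% and 35.2% of all genes. Their median log2 differences were -0.17 and -0.27. On chow the differences of *Mal* and *Mobp* were within the rounding of the deposited values. Whether the tanycyte genes differ from these lists was not tested.

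**Figure D4:**
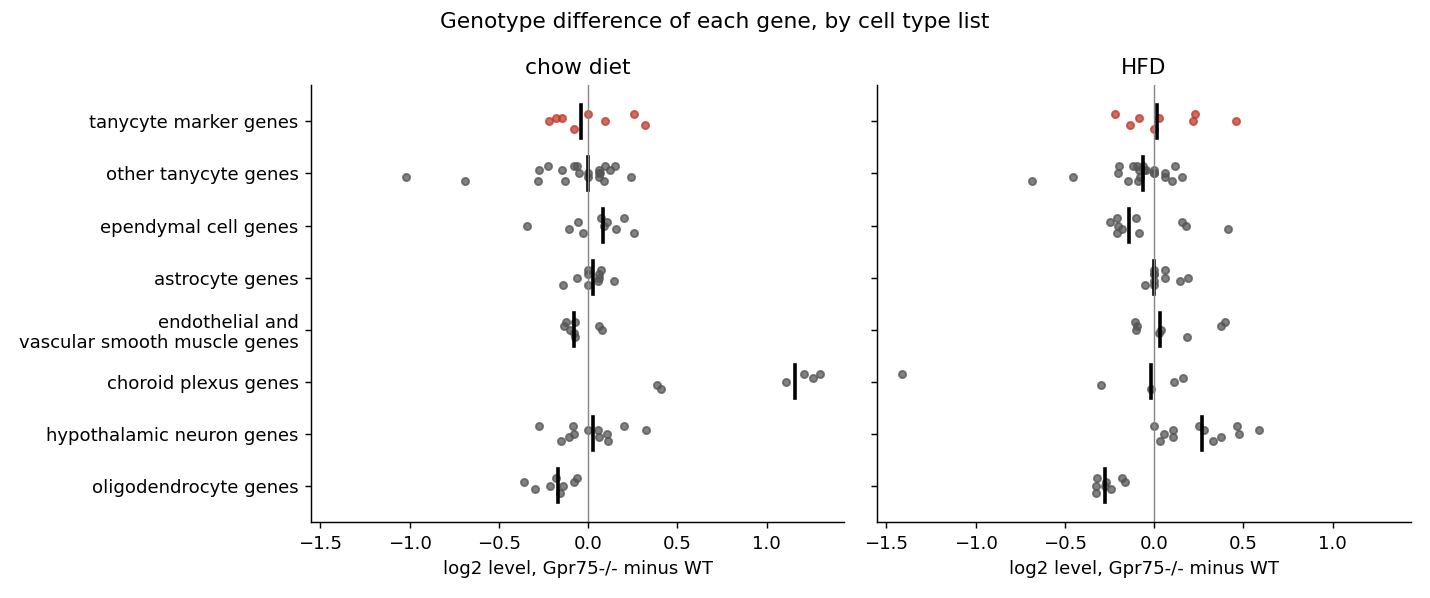
Log2 difference of *Gpr75*-/- minus WT level for each gene compared, by cell type list, on chow (left) and on the HFD (right). Each point is a gene and black bars are list medians. The tanycyte marker genes (red) lie on both sides of 0, with medians of -0.04 and 0.01. All 8 oligodendrocyte genes lie below 0 on each diet, *Mal* and *Mobp* within rounding on chow.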

How the data were processed

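Libraries were prepared from hypothalamus RNA with a SMART-Seq mRNA kit and sequenced in read pairs. The submitters' processing notes name STAR, featureCounts, StringTie, DESeq2 and GRCm39, and the authors ran DESeq2 separately on each diet. The signal the authors deposited per gene is the mean over 6 mice of counts divided by size factors. The deposited group levels appeared to be log2 of (log2 CPM + 1), with 2 decimals. Undoing both logs gave sums of 992419 to 994240 per group, and the mean of both groups was within 0.1 (log2) of the mean normalized count in CPM for 98.6% of genes on chow and 98.8% on the HFD. How mice were combined is not given in the sources used here, and a group level can lie well below the arithmetic mean where 1 mouse deviates. For the 8 genes the gap was -0.05 to -0.00. The authors' fold changes, standard errors, test statistics and p-values were not used.

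Tests on counts of single mice had been planned and could not be run. Genes with a mean of at least 30 and no group level listed at 0 were compared. A fold of 1.25 was counted as past the fold. Rounding ranges take each deposited value plus or minus 0.005. Counts of genes higher or lower include differences within rounding. Exon lengths came from GENCODE M21 (another build, matched by Ensembl identifier for 99.8% of genes), without its coordinates. The members and lists were chosen with earlier results of these data known. Each member is named, and of each list at most the 3 genes with the highest level and the 3 with the largest difference. *Lhx2*, *Oxt* and *Gpr75* were added for their roles, and *Avp* and *Crh* for their rounding, after values were seen. Python 3.11.15, numpy 2.4.6, pandas 2.3.3 and matplotlib 3.10.9 were used.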

Additional observations from a re-analysis of the deposited data

How the results depend on the processing

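The count of tanycyte genes past the fold was 0 on chow and 1 on the HFD. It was the same with no filter on the mean, after centring on the median of all genes, and with protein-coding genes alone. It was also the same with a mean of at least 100 normalized counts (7 members left, without *Rarres2*). With no filter, 7.33% of all genes on chow and 5.25% on the HFD were past the fold. These shares were 2.26% and 1.43% with a mean of at least 100, and 3.80% and 3.28% with protein-coding genes alone. The next settings were chosen after the data were seen. A fold of 1.1 gave 5 members on chow and 5 on the HFD (28.6% and 24.3% of all genes). A fold of 1.5 gave 0 on each diet (0.901% and 0.445% of all genes). The rounding bound farthest from 0 gave 1 on chow (*Rarres2*, with 7.54% of all genes). The filters and centring could not change the value of a single member, since the median subtracted was 0. Over all genes the count past the fold was 961 on chow and 682 on the HFD. It was 280 and 179 with a mean of at least 100, 508 and 440 with protein-coding genes alone, 4471 and 3826 with a fold of 1.1, and 141 and 70 with a fold of 1.5. No paired analysis was possible because the deposited values are 1 per group, and for the same reason DESeq2 and the fits without single replicates were not run. The spread between mice was not set beside any difference, and the depth of single mice was not used here.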
